A study of Mus musculus with 9 samples.

Results

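The probes described here target stretches of the mouse genome rather than named genes. Each carries an interval on genome build mm9 as its name, with a letter for the strand (F or R), and the set is labelled as intergenic noncoding RNA. The array held 16181 such interval probes among 55681 non-control probes. Members were chosen by their own signal: the scanner software had to flag the probe as well above background in every array of 1 group or more, which 8027 interval probes met. Of these, 6330 carried the flag on all 9 arrays and 1697 met the rule through 1 or 2 groups only. They lay in 2598 of the 3540 intervals on the array. The files give no gene for these probes, so the genes next to them were not analysed here, and whether an interval is intergenic was not checked.

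Long noncoding RNAs are transcripts that are not translated into protein, and many are made from stretches between protein-coding genes, often at low level and in few cell types. DNMT3A is an enzyme that adds methyl groups to cytosines in DNA, and it restrains self-renewal in blood stem cells. R882H is a recurrent change in its catalytic domain, found in acute myeloid leukaemia and in clonal blood formation of healthy people. LSK cells (lineage-negative, Sca-1-positive, Kit-positive) are the bone marrow fraction that holds the blood stem cells and the earliest progenitors.

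RNA came from LSK cells of the C57BL/6 strain that had been transduced with a GFP-marked vector, transplanted into mice and sorted. The 3 groups, of 3 samples each, received the empty vector (EV), wild-type DNMT3A (WT) or DNMT3A R882H (R882H), so cells of all groups were transduced and transplanted. The labels give neither the ages of the mice nor whether a sample came from 1 mouse or a pool, so p-values measure only the spread between these samples. In such bulk RNA, fewer cells that make a transcript and less of it per cell cannot be told apart.

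The arrays had a median raw signal of 79 to 88 against a background of 24 to 29, and no spot was saturated. The log2 median of the processed signal ran from 4.89 to 4.94 in EV, from 4.90 to 5.24 in WT and from 4.90 to 5.23 in R882H. Its 75th percentile, used for scaling, ran from 7.69 to 7.73, from 7.69 to 7.89 and from 7.60 to 7.81. Of 8 LSK and stem cell markers, 7 were well above background on all 9 arrays. Ms4a1 (B cells) and Cd8a (T cells) were above background on no array. Summed log2 levels of 3 megakaryocyte markers ran from 1.66 to 3.66 in EV, from 1.31 to 2.28 in WT and from 2.86 to 4.52 in R882H. EV overlapped both other groups, while every R882H array was above every WT array. Summed levels of 4 B cell markers ran from 0.17 to 0.45 in EV, from -0.08 to 0.83 in WT and from 0.24 to 1.07 in R882H; 1 of the 4 was above background on all 9 arrays. Among them Cd79a, a part of the B cell receptor, read -3.43, -3.90 and -3.99 in EV, -3.52, -2.13 and -2.05 in WT, and -2.11, -0.88 and -0.42 in R882H, where every array was above every EV array. Cd79a was above background on 5 of the 9 arrays. Cd79b, the marker above background on all 9, did not rise, with means of 0.18 in EV, 0.18 in WT and 0.01 in R882H. Summed levels of 5 granulocyte and monocyte markers ran from 7.78 to 8.01 in EV, from 7.57 to 7.85 in WT and from 7.71 to 7.89 in R882H, and 4 of the 5 were above background on all 9 arrays. S100a8, a granulocyte protein, read -3.67, -5.59 and 3.24 in EV, -5.30, -4.31 and 0.51 in WT, and -6.25, -3.06 and -1.69 in R882H. The part of these cells in the results was not tested. The arrays lay on 3 slides. Slide 1 held all EV arrays and WT replicate 1, slide 2 held WT replicates 2 and 3 with R882H replicates 1 and 2, and slide 3 held R882H replicate 3. No slide held both EV and R882H. The authors' deposited table of processed values goes against the scanner files: 7 of its 9 columns hold the values of an array other than the one named, 4 of them an array of another group. In the order of the sample records, the table's columns hold EV 1 to 3, then R882H 1 to 3, then WT 1 to 3. The records themselves run EV 1 and 2, WT 1 and 2, R882H 1 and 2, then number 3 of each group. The table's columns thus follow an order by group name. The files do not state which assignment is right, and this was not tested. Values here come from the scanner files as assigned, and the effect of taking the table's columns as named is given for each call.

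On each array 46.3% to 60.5% of the interval probes were well above background. In EV the shares were 51.2%, 46.3% and 51.6%, a mean of 49.7% ± 2.98 (SD, n = 3). In WT they were 51.1%, 60.3% and 49.6%, a mean of 53.7% ± 5.78 (SD, n = 3). In R882H they were 60.5%, 54.8% and 51.2%, a mean of 55.5% ± 4.69 (SD, n = 3). The groups overlapped. The R882H mean was 5.80 percentage points above EV (exact permutation test with both tails, p = 0.3) and 1.81 points above WT (exact p = 0.5), and WT was 3.99 points above EV (exact p = 0.6). All 3 had an adjusted p of 0.6, and 3 samples against 3 cannot give an exact p below 0.1. The R882H to WT difference turned to -0.22 points without WT replicate 3 and to -0.70 points without R882H replicate 1. The other probes on the array were detected more often, with means of 58.8% in EV, 61.7% in WT and 63.0% in R882H, and the same 2 arrays, WT replicate 2 and R882H replicate 1, were highest in both kinds of probe.

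Members were dimmer than the other probes that met the same rule. The median level of the 8027 members was -1.32 (log2 of the signal, with the 75th percentile of its array subtracted), against -0.09 for 23215 other probes. The flag sets where a member begins. Interval probes that reached it on 2 arrays of a group at most, and so fell just outside, had a median level of -3.79 (n = 1322). Which groups let a member in also varied. R882H alone admitted 550 members (6.85%), WT alone 254 (3.16%) and EV alone 104 (1.30%), in the same order as among other probes (4.20%, 1.85% and 0.64%), while 477 came in through WT and R882H together, 212 through EV and R882H and 100 through EV and WT. Few of these were at background everywhere else. Of the 550 members admitted through R882H alone, 14 were above background on no EV or WT array, and the same held for 1 of the 104 admitted through EV alone. The share on all 9 arrays was 78.9% of members and 87.2% of other probes. Because members admitted through 1 group had to be high there, medians over the whole set of members are given below for the 6330 on all 9 arrays. Shares with a low p are given for these too, save where all 8027 are named. The pairs of members also use all 8027.

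Between R882H and EV, 1 member passed at an adjusted p under 0.05 (limma, Benjamini-Hochberg over all 31242 detected probes), where 0.0032% of all probes tested passed. None passed between R882H and WT, against 0.0% of all probes, while 559 of the 8027 members (6.96%) had an unadjusted p under 0.05, against 7.11% of all probes. Between WT and EV 6 members passed, against 0.0192% of all probes. Those 6 were all the calls in that comparison, and 1 of them is the member that passed between R882H and EV. The rule that chose the members used the same arrays, so nothing is read from these counts against the background. They concern the 6 intervals described next. Of the called members, A_30_P01031496 alone was well above background on all 9 arrays. The others met the rule only through groups where they were high, so their order is no separate evidence.

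The strongest call was A_30_P01032725 on the R strand of chr8:122920901-123008463. Its level was -5.53, -5.74 and -5.93 in EV, -3.71, -3.64 and -3.88 in WT, and -3.01, -2.58 and -3.12 in R882H. The 3 groups did not overlap, with EV lowest, WT between and R882H highest. No EV array, 2 WT arrays and all 3 R882H arrays were well above background. The probe thus met the rule through R882H alone, the group where it was highest. With no filter on dim probes, the limma adjusted p between R882H and EV was 0.0349. R882H exceeded EV by 2.83 ± 0.19 (log2 difference ± SE, n = 3 and 3; limma adjusted p = 0.00563). Because EV had only a bound, the supported difference is at least 1.72-fold higher; this bound sets the R882H mean against, on each EV array, the higher of the probe's own signal and the dimmest signal that counts as well above background. WT also passed against EV (fitted difference 1.99, adjusted p = 0.0364), but the WT mean lies below that bound, so no size of difference above background is supported. R882H differed from WT by 0.84 ± 0.19 (adjusted p = 0.531). On slide 1, the 1 WT array stood 2.02 above the EV mean, and on slide 2 the R882H mean stood 0.96 above the WT mean. With slide as a block the R882H to EV difference was 2.98 (adjusted p = 0.379). Without R882H replicate 1 it was 2.88 (adjusted p = 0.0536), and with the authors' table as named it was 1.79 (adjusted p = 0.883). The call held under 13 of 19 alternatives, with values from 0.57, under normexp background correction, to 2.98.

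This probe stands at the top of a broader group. The interval is 87563 bp long and carries 20 probes, 10 to each strand, of which 16 are members. All 15 others had a higher mean in R882H than in EV with the 75th percentile as reference, by 0.03 to 1.76 with a median of 0.54; with the array median 12 of 15 did, and with slide as a block 9 of 15. For 2 of the 15 the groups did not overlap. Among all probes tested the groups stood apart with R882H higher in 10.8%. Shorter intervals inside the same stretch ran the same way. The largest were at chr8:122963590-122964126, where both members differed between R882H and EV by 0.81 and 0.92, and at chr8:122945743-122946192, by 0.51 and 0.78. At the others inside the stretch the differences ran from 0.15 to 0.66. All these values take the 75th percentile as reference. None of these members passed the test. These probes lie within 1 stretch and may read the same transcript, so they are not independent.

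The only called member that was well above background on all 9 arrays was A_30_P01031496, on the R strand of chr13:112337405-112356455. Its level was 1.11, 0.25 and 0.65 in EV, -1.76, -1.80 and -2.29 in WT, and -1.13, -1.78 and -1.16 in R882H. Every EV array was above every array of the other groups. WT was lower than EV, with a difference of -2.62 ± 0.28 (adjusted p = 0.0404). R882H differed from EV by -2.03 ± 0.28 (adjusted p = 0.22) and from WT by 0.59 ± 0.28 (adjusted p = 0.724), and both comparisons with EV share the same EV arrays. On slide 1 the WT array stood at -1.76 against an EV mean of 0.67. S100a9, a granulocyte marker, also had its highest mean in EV, but it read -0.78, -1.22 and 3.66 there, -3.13, -1.96 and 0.76 in WT and -1.97, -1.30 and -2.22 in R882H. For S100a9 EV overlapped WT but not R882H, and EV replicate 3 stood far above the other 2 EV arrays, which was not so for A_30_P01031496. Its part in the result was not tested.

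The opposite strand of this interval held a probe with a like pattern. A_30_P01033327, on the F strand, read -0.32, -1.43 and -0.70 in EV, -2.77, -3.69 and -4.30 in WT, and -2.77, -3.21 and -2.60 in R882H. Here too every EV array was above all others. The WT to EV difference was -2.77 ± 0.41 (adjusted p = 0.24) and the R882H to EV difference -2.04 ± 0.41 (adjusted p = 0.345). The 2 remaining members of the interval, A_30_P01022839 and A_30_P01024224 on the F strand, differed between WT and EV by 0.10 and 0.25 only. Of the 9 probes in this 19051 bp interval 4 are members, and 2 of those carried the difference.

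On chr7:88668948-88678046 the F-strand probe A_30_P01028924 was low in WT alone. Its level was -3.43, -3.05 and -3.69 in EV, -5.72, -5.52 and -5.52 in WT, and -3.48, -4.09 and -3.53 in R882H. EV and R882H overlapped, and no WT array was well above background. The probe met the rule through EV alone. WT was lower than EV (-2.20 ± 0.23, adjusted p = 0.0364), at least 1.41-fold. R882H differed from WT by 1.89 ± 0.23, which did not pass (adjusted p = 0.203). The 5 members of this interval, on both strands, all had a lower mean in WT than in EV, by -0.29 to -2.20, and a higher mean in R882H than in WT. The widest of these was A_30_P01032984, with -3.74, -5.65 and -2.34 in EV, -6.13, -6.53 and -2.79 in WT, and -1.72, -0.91 and -2.16 in R882H. Its R882H to WT difference was 3.56, with an adjusted p of 0.65, and its WT arrays spanned over 3 log2 units.

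The 3 other calls were higher in WT than in EV. A_30_P01031236, on the R strand of chr17:3198868-3394643, read -5.34, -4.14 and -5.51 in EV, -1.82, -1.76 and -1.98 in WT, and -2.76, -2.89 and -2.98 in R882H. The groups did not overlap, with R882H between the others. WT exceeded EV by 3.14 ± 0.32 (adjusted p = 0.0364), and since no EV array was above background the supported size is at least 3.55-fold. The 11 other members of this 195776 bp interval had WT to EV differences from -0.72 to 1.45.

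A_30_P01029474, on the R strand of chrX:93157194-93160542, read -6.03, -5.73 and -5.58 in EV, -2.57, -3.49 and -3.22 in WT, and -4.12, -3.71 and -4.15 in R882H. R882H again lay between the others. The probe met the rule through WT alone. WT exceeded EV by 2.69 ± 0.26 (adjusted p = 0.0364), at least 1.51-fold. The other member of the interval, A_30_P01022945, differed by 0.75.

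A_30_P01020638, on the R strand of chr15:61984389-62102500, read -3.52, -3.89 and -3.29 in EV, -1.87, -1.75 and -1.58 in WT, and -2.75, -2.66 and -2.59 in R882H. It showed the same order, with no overlap. WT exceeded EV by 1.84 ± 0.18 (adjusted p = 0.0364), and R882H differed from WT by -0.94 ± 0.18 (adjusted p = 0.434). Of the 11 other members of the interval, 9 had a higher mean in WT than in EV; with the array median, 8 of all 12 did.

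The calls between WT and EV rest on narrow margins. Same-numbered WT and EV arrays correlated weakly in their deviations (0.102 to 0.24), as did those of the other pairs of groups. With the replicate number as a block none of the 6 members passed (adjusted p from 0.125 to 0.205). Of the 8027 members, 783 (9.75%, against 8.33% of all probes) then had an unadjusted p under 0.05. Nor did any pass with slide as a block, where the adjusted p ran from 0.11 to 0.404 and the differences kept their direction. The count was 0 when WT replicate 1, WT replicate 2 or any 1 of the R882H arrays was left out, 1 without EV replicate 1 or 2, and 3 without EV replicate 3 or WT replicate 3. With normexp background correction the differences were smaller. They came to 0.84 for A_30_P01031236, 0.50 for A_30_P01029474, 0.66 for A_30_P01020638, 0.29 for A_30_P01032725, -1.84 for A_30_P01031496 and -0.33 for A_30_P01028924, with an adjusted p from 0.098 to 0.846. With the authors' deposited table as named they came, in the same order, to 0.42, 0.37, 0.49, 0.79, -0.63 and -0.17, with an adjusted p from 0.96 to 0.989. Of the 6 members themselves, 1 passed without EV replicate 2, 1 without EV replicate 3 and none without any other array. On slide 1 alone, the WT array differed from the EV mean by 3.18 for A_30_P01031236, by 3.21 for A_30_P01029474, by 1.70 for A_30_P01020638 and by -2.33 for A_30_P01028924.

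Other members with large differences that did not pass were taken up to 5 a direction in each comparison. A_30_P01022388, on the F strand of chr17:21801262-21801932, was above background only in R882H. It read -5.70, -5.37 and -5.86 in EV, -5.48, -6.18 and -5.41 in WT, and -3.59, -2.07 and -2.98 in R882H. Its difference was 2.76 ± 0.38 from EV (adjusted p = 0.22) and 2.81 ± 0.38 from WT (adjusted p = 0.215), with bounds of at least 1.75-fold and 2.01-fold. A_30_P01021598, on the F strand of chr2:174428737-174439062, had the same shape, with -3.00, -3.23 and -3.31 in R882H and no EV or WT array above background. It differed by 2.22 ± 0.31 from EV (adjusted p = 0.226) and by 2.39 ± 0.31 from WT (adjusted p = 0.215). A_30_P01030994, on the F strand of chr10:126818382-126856582, differed from EV by 2.26 ± 0.24 (adjusted p = 0.114), at least 1.24-fold, and was above background only in R882H. These 3 probes lie on different chromosomes. All met the rule through R882H alone, so being high there is no separate evidence.

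A few members were measured on all arrays in these lists. A_30_P01022997, on the F strand of chr19:53517903-53540753, read -3.04, -3.02 and -3.42 in EV, -1.95, -1.38 and -2.09 in WT, and -1.43, -1.09 and -1.60 in R882H. Both DNMT3A groups stood above EV and overlapped each other. The differences from EV were 1.78 ± 0.24 in R882H (adjusted p = 0.22) and 1.35 ± 0.24 in WT (adjusted p = 0.433). A_30_P01019192, on the F strand of chr11:95627874-95640824, ran the other way, with 0.33, 0.37 and 0.34 in EV and -0.63, -0.22 and -0.64 in R882H. Its R882H to EV difference was -0.84 ± 0.18 (adjusted p = 0.368). In this interval 17 of 18 members had a lower mean in R882H than in EV, with a median of -0.38.

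Between R882H and WT, the intervals of the members named as lower in R882H did not all lean one way. Each was reached through such a member, so part of any lean follows from that choice. R882H was higher for 3 members and lower for 9 at chr15:61984389-62102500, 2 and 1 at chr13:23517278-23523756, and 1 and 1 at chr5:54053882-54054174. Of all 8027 members 60.5% had a higher mean in R882H than in WT, against 50.2% of other probes. In the other intervals every member was lower. All 10 probes of chr4:11102287-11118421, 5 to each strand, were members with a lower mean in R882H than in WT, by -0.23 to -1.21 with a median of -0.66. The named one, A_30_P01028934 on the F strand, differed by -1.14 ± 0.29 (adjusted p = 0.606). The 3 probes of chr1:139822286-139822985 had differences from -0.68 to -1.53. Among them A_30_P01033082 read -1.23, -1.16 and -1.36 in EV, -1.39, -0.26 and -0.66 in WT, and -2.66, -1.78 and -2.45 in R882H, a difference from WT of -1.53 ± 0.32 (adjusted p = 0.434). R882H lay below both other groups on every array.

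Intervals in which every member told the groups apart were rare. The count runs over members on all 9 arrays, of which 847 intervals had at least 3. In 6 of them all such members were higher in R882H than in EV without overlap of the groups, and in 2 all were lower, where 9.66% and 8.24% of single probes on all 9 arrays did so. Between R882H and WT 1 interval was higher and 3 were lower (6.13% and 6.89% of single probes), and between WT and EV 3 were higher and 4 lower (5.82% and 4.5%). The shares are of single probes, while an interval counts only if at least 3 probes agree, so the 2 are unlike measures and are not compared. These intervals were picked after their values were seen, and none of these members passed the adjusted threshold. The most members stood in chr8:60132300-60146830, where 7 of its 8 members were on all 9 arrays and differed between WT and EV by -0.92 to -1.75, with a median of -1.15. The widest difference between R882H and WT was at chr6:40693617-40720167, where 3 of 7 members were on all 9 arrays and differed by -1.84 to -2.43.

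On chromosome X 2 intervals 8499 bp apart had like values. All 3 probes of chrX:92139043-92140820 and all 3 of chrX:92149320-92151107 lie on the R strand and were above background on all 9 arrays. A_30_P01033617, in the former, read -1.69, -2.12 and -2.33 in EV, 1.18, -0.71 and -0.89 in WT, and 0.51, 0.66 and -0.70 in R882H. A_30_P01032775, in the latter, read -2.10, -2.14 and -2.43 in EV, 0.56, -0.57 and -1.39 in WT, and 0.02, 0.14 and -0.84 in R882H. WT replicate 1, which shares a slide with the EV arrays, was the highest array for both probes. The 6 probes differed from EV by 1.01 to 2.20 in R882H and by 1.36 to 1.90 in WT, and these comparisons share the EV arrays. The 3 probes of chr3:51784862-51793999 on the F strand had the same shape, with differences from EV of 1.18 to 1.57 in R882H and 1.46 to 1.69 in WT.

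Smaller differences were found on chromosomes 19 and 8. The 3 R-strand probes of chr19:5801802-5802597 differed between WT and EV by -0.28 to -0.38. The brightest, A_30_P01031754, read 7.85, 7.82 and 7.76 in EV, 7.55, 7.50 and 7.32 in WT, and 7.85, 7.97 and 7.74 in R882H. All 5 probes of chr8:35650475-35664200, on both strands, differed between WT and EV by -0.12 to -0.41.

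In 3 further intervals most or all members met the rule only through the groups where they were high, so their values are given as a description. The interval chr14:103751075-103769725 was above background on no EV array, save for 1 probe on 1 array. Its 5 probes, 3 on the F and 2 on the R strand, were all members through R882H alone. A_30_P01027805 on the F strand read -5.88, -4.75 and -4.07 in EV, -4.53, -4.45 and -3.51 in WT, and -2.48, -1.61 and -1.85 in R882H. A_30_P01020456 on the R strand read -5.71, -5.24 and -4.94 in EV, -5.79, -5.60 and -4.13 in WT, and -3.05, -2.78 and -2.26 in R882H. Since the rule admitted them for being high in R882H, their order against EV is no separate evidence. WT replicate 3 lay nearest to the R882H arrays, within their range for 1 probe. The differences from EV ran from 1.98 to 2.92 with a median of 2.44, and for A_30_P01027805 the bound was at least 3.26-fold (adjusted p = 0.276). A second interval on that chromosome, chr14:70483555-70484159, had 3 probes, 1 of them on all 9 arrays, with R882H to EV differences of 0.57 to 3.26. There A_30_P01020168 read -5.70, -4.01 and -5.28 in EV, -2.46, -2.93 and -2.03 in WT, and -1.78, -1.13 and -2.94 in R882H, so that both DNMT3A groups stood above EV.

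Members of chr12:53669634-53672010 came in through EV alone, and its 3 F-strand probes differed between WT and EV by -1.11 to -3.15. A_30_P01029904 read -2.78, -2.37 and -2.89 in EV, -3.83, -5.15 and -5.73 in WT, and -3.35, -3.66 and -3.83 in R882H, with a bound of at least 2.30-fold between EV and WT (adjusted p = 0.54).

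Over the members, R882H to EV differences centred slightly above 0, a sign that turns when the array median is the reference or slide is a block. The median difference was 0.08 over the 6330 members on all 9 arrays, against -0.03 over 20251 other such probes. It was 0.07 against -0.01 between R882H and WT, and 0.02 against -0.01 between WT and EV. An unadjusted p under 0.05 between R882H and EV was reached by 582 of the 6330 (9.19%), against 7.7% of all probes on all 9 arrays. Of the 582, 464 were higher in R882H and 118 lower, where 4.92% and 2.78% of all such probes were. Against WT, R882H had 351 (5.55%, against 6.15%), and between WT and EV 362 (5.72%, against 5.04%). Over all 8027 members the counts were 887, 559 and 614, where 9.17%, 7.11% and 6.3% of all probes reached it. The split by direction among all 8027 members depends on the scaling. Between R882H and EV it was 732 higher and 155 lower with the 75th percentile as the reference (6.46% and 2.71% of all probes tested), and 329 higher and 477 lower with the array median, which moves the median of all probes from 0.02 to -0.15. Between R882H and WT 386 higher and 173 lower (3.86% and 3.26% of all probes) became 233 and 322. Between WT and EV 404 and 210 (3.87% and 2.44%) became 279 and 286. The array median shifts members and other probes alike, but other settings narrowed the gap between their medians. Over probes on all 9 arrays the R882H to EV gap was 0.11 with either reference, 0.07 with normexp, 0.05 with quantile normalization or cyclic loess, and 0.03 with slide as a block. The WT to EV gap was 0.03, and turned to -0.03 with slide as a block.

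Members are dimmer than other probes, and the differences varied with brightness. Probes on all 9 arrays were put in 5 equal groups by mean signal. The members' median R882H to EV difference was 0.15 in the dimmest group (n = 1869), 0.12 in the second, 0.07 in the third, 0.02 in the fourth and -0.11 in the brightest (n = 694). Other probes of the same brightness gave 0.11, 0.07, -0.01, -0.08 and -0.11. Within the first 4 groups the members thus lay 0.04 to 0.10 above the other probes, and in the brightest 0.01 above them. All these values would be lower with the array median as reference.

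Both strands were detected alike. Of 8171 F-strand probes 49.7% were members, and of 8010 R-strand probes 49.5%. The R882H to EV median was 0.08 on both. Probes to both strands were present for 1067 intervals. Both strands held a member in 775 of these (72.6%), the F strand alone in 111, the R strand alone in 112 and neither in 69. Signal on 1 strand only was the exception. Per the labels' protocols the RNA was amplified to cDNA before labelling, and how far that keeps the strand is not stated there.

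Pairs of members show how local the differences are. For probes of 1 strand of 1 interval the R882H to EV differences correlated with r = 0.40 (10724 pairs), and for probes on opposite strands of an interval with r = 0.29 (8942 pairs). Across intervals r was 0.20 where they overlap (11792 pairs), 0.17 at gaps under 10 kb (2095 pairs) and 0.13 at 10 to 100 kb (8580 pairs). Beyond that it was 0.02 at gaps of 100 kb to 1 Mb and near 0 at 10 Mb or more. The R882H to WT differences fell off from 0.35 on the same strand to 0.24 on opposite strands and 0.14 at 10 to 100 kb, and the WT to EV differences from 0.30 to 0.19 and 0.05. Within groups, where no treatment differs, deviations from the group mean followed the same order, with a median r over pairs of 0.42, 0.26, 0.20, 0.13 and 0.10 from the same strand to gaps of 10 to 100 kb. These are correlations across probes on the same 9 arrays. They run over all 8027 members, including those admitted for being high in 1 group, and how far that choice affects r was not tested. Pairs share probes, and overlapping intervals may share sequence.

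Long intervals held members more often than short ones. Intervals ran from 62 to 7128487 bp with a median of 7315.5 bp, and those with a member had a median of 10013.5 bp. The longest, chr7:39351858-46480344, has 1 probe, which was not a member. Of probes in intervals under 2 kb 39.0% were members, as were 38.8% at 2 to 5 kb. From 5 kb upward the share was 51.8% to 54.5%. The R882H to EV median over members on all 9 arrays was 0.15 under 2 kb (n = 879) and 0.16 at 2 to 5 kb (n = 248), and 0.04 to 0.08 in the 4 longer classes. The share of these with an unadjusted p under 0.05 was 11.8% under 2 kb, 8.87% at 2 to 5 kb and 7.58% to 9.59% in the longer classes from 5 kb. It was 7.7% of all probes on all 9 arrays. The 1205 intervals under 2 kb carry 3084 probes and the 373 of 50 kb or more carry 2399, so length and number of probes go together.

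The chromosomes differed in how many of their probes were members, from 40.8% on chromosome 9 (300 members) to 61.2% on chromosome 17 (550 members). The share of members on all 9 arrays with an unadjusted p under 0.05 between R882H and EV ran from 5.56% on chromosome 16 (n = 216) to 12.5% on chromosome 3 (n = 312). Chromosome 3 was again highest between R882H and WT, with 8.65%, and chromosome 15 lowest, with 2.70%. Between WT and EV the range was 3.61% on chromosome 5 to 8.70% on chromosome 10. Differences of neighbouring probes correlate, as the pairs show, so a few intervals can shift these shares, and the order of the chromosomes was not tested.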

How the data were processed

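Scanner output came from Agilent Feature Extraction 10.10.1.1, array design 028005 with probe coordinates on mm9, per the file headers; its processed signal, an intensity the authors deposited, is already background-subtracted. The input to cDNA amplification was 3.67 ng of RNA, per the labels' protocols. The value column of the authors' deposited table is on a log2 scale, with probes centred; its columns were matched to arrays by differences between arrays. Control spots and outlier spots (154 to 184 an array) were left out, spots of 1 probe averaged, log2 taken and the array's 75th percentile subtracted. All 31242 detected probes on 9 arrays were fitted with limma 3.58.1 (R 4.3.3; lmFit, eBayes, 6 residual and 2.71 prior degrees of freedom), with Benjamini-Hochberg adjustment over all of them and a threshold of 0.05. The median SE of a difference over members was 0.265, which limits what 3 arrays a group can show. Members and lists were chosen with earlier results of these data known. Named members are, per comparison, up to 5 a direction, ordered by size among those that passed and whose groups do not overlap, and filled by smallest p. A haematopoietic gene panel near intervals could not be applied, since the files place no gene on mm9. Same-numbered arrays correlated in their deviations from the group mean, by 0.102, 0.186 and 0.24 for WT and EV. The values were 0.0792, 0.155 and 0.207 for R882H and EV, and 0.084, 0.122 and 0.184 for R882H and WT. The labels name no pairs, and no values for unlike numbers are given, so pairing was not tested. Normexp was run on the median signal, as the files hold no mean signal. On simulated data for R882H against EV over 31242 probes, the fit recovered 94 of 100 probes changed by 3 log2 units and 76 of 100 changed by 2, with 6 false calls. The simulated spread was independent between probes and arrays, with no slide effect. Changed probes were drawn from all 31242, so these rates do not give those for the dimmer members. Alternatives changed background, scaling, filter, blocks, arrays and source of values.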

Additional observations from a re-analysis of the deposited data

How the results depend on the processing

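The count of members called between R882H and EV, 1, was 0 under normexp, with probes well above background on all 9 arrays, with slide as a block, with only the 2 groups compared, with the authors' table as named and without number 3 in every group, and 2 under quantile normalization. Leaving out 1 array gave 0 to 3, with 0 without R882H replicate 1. Between WT and EV the 6 calls became 0 under normexp, quantile normalization, cyclic loess, no filter on dim probes, the filter on all 9 arrays, slide as a block, the replicate block, only the 2 groups compared, the authors' table as named and without number 3 in every group; the array median gave 7, and leaving out 1 array 0 to 3. Between R882H and WT, leaving out 1 array gave 0 to 2 calls. Counts at an unadjusted p under 0.05 moved by over 1.5 times in 3 cases. R882H against EV went from 887 (11.05%, against 9.17% of all probes) to 536 with slide as a block (6.68%, against 5.82%). R882H against WT went from 559 (6.96%, against 7.11%) to 307 with the authors' table as named (3.82%, against 2.80%). It went to 874 with no filter, where 16175 interval probes were tested rather than 8027. The share then fell to 5.40%, against 5.19% of all probes. For R882H against EV and WT, whose same-numbered arrays correlated by 0.0792 to 0.207, the replicate block gave 1 and 0 calls. The detection difference between R882H and WT ran from -0.70 to 5.11 points when 1 array was left out, with -0.22 without WT replicate 3. With the authors' table as named, 7 differences of named members changed sign: between R882H and WT A_30_P01020638 (0.32), A_30_P01021971 (-0.14), A_30_P01025772 (-0.01), A_30_P01028924 (-0.15) and A_30_P01029064 (0.42), and between WT and EV A_30_P01021971 and A_30_P01026388 (0.04 each). Taken as named, 4 columns of that table hold an array of another group, so it does not compare the same sets of arrays. The 7 calls passed in 21 of their 134 alternatives and lost significance in the other 113; the cause was not tested. Over all named members, 455 values, those 21 included, kept direction and side of the threshold, and 5 gained significance. Signal over background limits dim members, where a group without an array above background gives only a bound.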
